A study of Mus musculus with 8 samples.

Results

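The integrin set examined here holds 10 genes, taken by symbol from the 35583 genes of the deposited count table. They are the alpha chains Itga4, Itga6, Itga9, Itgal and Itgav, the beta chains Itgb1, Itgb3, Itgb5 and Itgb7, and Fermt3, which encodes kindlin-3. The chains of the complement receptors (Itgam, Itgb2, Itgax) are outside the set and are used only as reference points. The genes were measured by RNA sequencing in microglia, the resident macrophages of the brain, sorted from the hypothalamus. The mice were young, of wild-type genotype, and had received a plasma protein carrying a dye 20 hours earlier. Each of the groups, named plasma-negative and plasma-positive microglia by the labels, has 4 libraries. All 8 libraries are of the same genotype, age class and injection, and the gate between the groups, the strain and the sex are not given in the sources used here. The comparison asks which of these adhesion genes differ between the plasma-positive and plasma-negative groups. The labels do not say whether the libraries come from separate animals, so p-values measure the spread between these libraries, which may be technical.

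Integrins are heterodimers of 1 alpha and 1 beta chain that tie a cell to extracellular matrix, to plasma adhesion proteins or to other cells. Chains of the alpha-v family bind vitronectin, fibronectin and fibrinogen through a short arginine-glycine-aspartate motif, and members paired with Itgb1 bind fibronectin, laminin or tenascin. A resting integrin is switched on from inside the cell when talin and a kindlin bind the tail of its beta chain, a step called inside-out activation. In macrophages and microglia, integrins take part in adhesion, in engulfment and in the release of active TGF-beta from its latent complex.

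Library totals ran from 2963094 counts (plasma-negative replicate 4) to 21422738, and those of the plasma-positive group from 9421708 to 20562689. Gene counts made up 70.4% ± 2.8 of the reads behind the RPKM scale in the plasma-negative group and 83.3% ± 1.3 in the plasma-positive group (SD, n = 4; two-sided p = 0.0286 by exact permutation, the smallest this design allows). All 8 microglial markers on the list were detected, and their summed level was 59543 to 70413 CPM (counts scaled to a common library size) in plasma-negative and 65694 to 70723 CPM in plasma-positive libraries. Of these 8, 7 had positive log2 differences, 1 (Csf1r) was called higher at 0.28 (edgeR, adjusted p = 0.00489), and 3 had groups that did not overlap (2 higher and, for Cx3cr1, lower at -0.11), where 1.41% of all tested genes were called and 10.3% had groups apart. Sums over oligodendrocyte, neuronal, astrocyte and endothelial markers overlapped between the groups. The 6 oligodendrocyte genes summed to 157 to 230.4 CPM in the plasma-negative and 222 to 514 CPM in the plasma-positive group, and all 5 that were tested had positive log2 differences (median 0.80, none called). The 7 neuronal genes summed to 2.69 to 32.2 CPM and 10.05 to 243 CPM. All 5 tested had positive log2 differences (median 2.34), and 1 was called (Pomc, at 0 counts in each plasma-negative library and 19 to 134 in the plasma-positive ones). The groups were apart for 1 oligodendrocyte and 1 neuronal gene, both higher. The astrocyte list summed to 208 to 322 CPM and 199 to 256 CPM, and the endothelial list to 0 to 17.5 CPM and 2.46 to 11.5 CPM. Of the 3 astrocyte genes tested, 2 had positive log2 differences and 1 a negative one (median 2.29, none called). The 1 endothelial gene tested differed by -1.68 and the 1 border macrophage gene tested by 2.93, neither called. The border macrophage list summed to 0 to 2.36 CPM and 1.76 to 16.5 CPM with Cd163, Lyve1 and F13a1 at 0 throughout, the monocyte list to 0 to 14.9 CPM and 0 to 48.7 CPM, and the mural and fibroblast list to 0 to 4.12 CPM and 0 to 17.6 CPM. The part of these cells in the results below was not tested. A pair of libraries stood apart. Plasma-negative replicate 4 had the smallest total and a counted share of 74.6%, against at most 69.3% in the rest of its group. Plasma-positive replicate 3 held 5908 counts of S100a8, 3365 of S100a9, 8481 of Ngp and 1135 of Camp, genes of neutrophils, against at most 34 counts of any of these in the other 7 libraries.

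Of the 10 genes, 7 had enough counts to be tested and 3 (Itga4, Itgal and Itgb7) did not. With edgeR, 0 of the 7 passed an adjusted p of 0.05, where 1.41% of the 13277 tested genes did (0.844% higher and 0.565% lower in plasma-positive libraries). At an unadjusted p under 0.05 there was 1, Itgb5, where 13.8% of tested genes had such a p. DESeq2 called 1 of them, again Itgb5, where it called 6.43% of the genes it gave an adjusted p. Limma also called Itgb5 alone, where it called 3.37% of genes on log2(RPKM + 1) and 3.25% on log2(RPKM + 0.1). In none of the 7 did the 4 plasma-positive CPM values all lie on one side of the 4 plasma-negative ones, which was the case for 10.3% of tested genes. The median log2 difference of the 7 was -0.11, with 2 positive and 5 negative, beside 0.0058 for all tested genes. A p above the threshold does not show that a gene is equal in both groups, so the interval of each difference is given below.

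Transcript levels differed far more between the genes than between the groups. RPKM values, which are reads per kilobase of exon and so can be set side by side for different genes, had this order by their mean over the 8 libraries: Itgb5 429, Itgb1 60.2, Fermt3 46.8, Itga6 31.8, Itgav 10.5, Itga9 7.51 and Itgb3 6.40. Itgb5 ranked 59 by mean RPKM among all genes of the table. It alone made up 61.9% to 72.3% of the summed RPKM of the set in plasma-negative and 67.9% to 78.7% in plasma-positive libraries. Its lowest library (257 RPKM) lay above the highest library of Itgb2 (238), the shared beta chain of the complement receptors and the next integrin chain by level. Itgam followed, with the limit that 68.7% of its exon length is shared with Gm49368 on the same strand. The lowest library of Itga6 (27.4 RPKM) was also above the highest of Itgav (13.2). Neighbours below Itgb5 were less distinct. The ranges of Itgb1 and Fermt3 overlapped, with Itgb1 higher in 7 of 8 libraries, and those of Itga9 and Itgb3 overlapped, with Itga9 higher in 6 of 8.

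**Figure D1:**
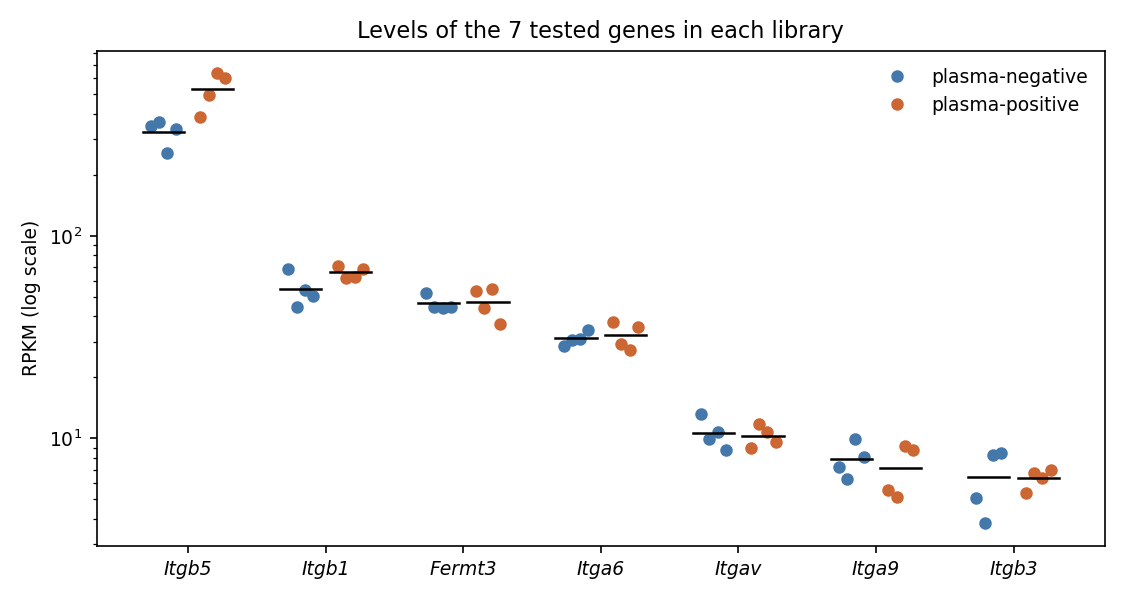
RPKM of the 7 tested genes on a log axis, 1 point per library, plasma-negative in blue and plasma-positive in orange, with black lines at the group means. Itgb5 lies between 257 and 636 RPKM in all libraries, above the other 6 genes, and the groups overlap for each gene but Itgb5.

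Itgb5 (ENSMUSG00000022817, chromosome 16, 33829665 to 33949338, plus strand, 3553 bases of merged exons) encodes the beta-5 chain, which pairs with alpha-v to form a vitronectin receptor. Its CPM values were 1694, 1799, 1259.7 and 1594 in plasma-negative replicates 1 to 4 and 1708, 2169, 2809.7 and 2781 in plasma-positive replicates 1 to 4. Plasma-positive replicates 2 to 4 were above every plasma-negative library, and replicate 1 lay inside the plasma-negative range. The means were 1587 ± 234 and 2367 ± 530 CPM (SD, n = 4), a log2 difference of 0.58 with an SE of 0.15 and a 95% interval of 0.25 to 0.91, or 1.49-fold (edgeR, adjusted p = 0.0927). The adjusted p of this gene depended on the method. It was 0.00949 with DESeq2 at a log2 difference of 0.55, and 0.0352 with limma on log2(RPKM + 1) at 0.68. On the RPKM scale the groups did not overlap, with 257 to 365 in plasma-negative and 385 to 636 in plasma-positive libraries, but that scale also carries the gap in counted share given above. Leaving out plasma-positive replicate 1, the lowest of its group, gave 0.71 (edgeR, adjusted p = 0.0416). Without plasma-positive replicate 3, the library with neutrophil transcripts, the log2 difference was 0.49 (adjusted p = 0.224), and without plasma-negative replicate 4 it was 0.58 (adjusted p = 0.139), both in edgeR.

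**Figure D2:**
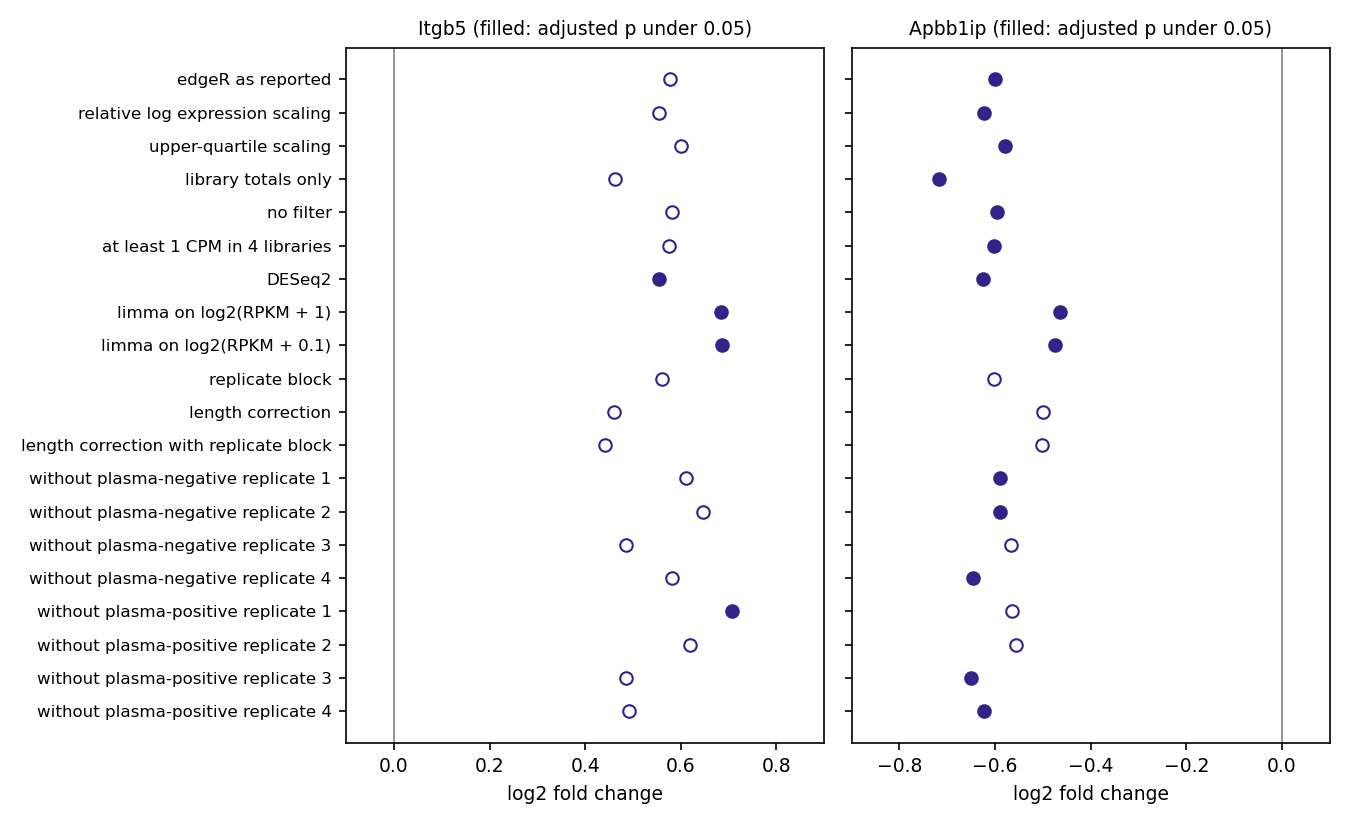
Log2 fold change (x axis, plasma-positive over plasma-negative) of Itgb5 on the left and of the talin recruiter Apbb1ip on the right under each way of processing (rows), filled where the adjusted p was under 0.05. Itgb5 lies between 0.44 and 0.71 and Apbb1ip between -0.72 and -0.46, so neither changes direction, while both move across the threshold.

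The 250 bases before the annotated RefSeq start were matched for 7 of the 10 genes and are shown for Itgb5 and Itgav, the partner chains, and for Fermt3, which differs from them in base composition. Each is written 5′ to 3′ on the strand of its gene in build GRCm38, with every CG pair in capitals. For Itga9 and Itgb7 the RefSeq start lies inside the span of the gene in the deposited table. The positions are chr16:33829415-33829664 (plus strand) for Itgb5, chr2:83724147-83724396 (plus strand) for Itgav and chr19:7019470-7019719 (minus strand) for Fermt3.
Itgb5: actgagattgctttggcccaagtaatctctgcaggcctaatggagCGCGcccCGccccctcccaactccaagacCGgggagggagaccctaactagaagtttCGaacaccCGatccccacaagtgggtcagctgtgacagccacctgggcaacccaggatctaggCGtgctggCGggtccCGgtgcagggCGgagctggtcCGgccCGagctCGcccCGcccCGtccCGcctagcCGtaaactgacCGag
Itgav: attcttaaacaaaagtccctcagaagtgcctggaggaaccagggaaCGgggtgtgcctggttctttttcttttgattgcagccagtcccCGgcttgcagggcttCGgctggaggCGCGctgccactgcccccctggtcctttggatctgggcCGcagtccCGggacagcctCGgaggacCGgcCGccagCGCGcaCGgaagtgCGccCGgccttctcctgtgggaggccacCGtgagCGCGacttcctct
Fermt3: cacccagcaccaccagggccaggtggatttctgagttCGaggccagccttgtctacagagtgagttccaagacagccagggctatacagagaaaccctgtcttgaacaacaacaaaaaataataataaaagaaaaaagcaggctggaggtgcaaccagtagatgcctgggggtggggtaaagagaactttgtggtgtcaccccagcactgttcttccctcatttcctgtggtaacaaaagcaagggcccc
Itgb5 and Itgav hold 18 CG pairs each and Itgb1 holds 21, against 10 for Itga9, 6 for Itga4, 5 for Itgb7 and 1 for Fermt3. The median over 32851 promoters of the same length was 6, and 21.7% of them hold at least 18. GAGGAA, the core of sites for the myeloid factor PU.1, or its complement TTCCTC was found before Itgav (once on each strand) and Itgb1 (once, on the gene's strand), and before 23.3% of all promoters. These letters were not found in the windows of the other 5 matched genes. A match is a description of the sequence and not a bound site.

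Itgb1 (ENSMUSG00000025809, chromosome 8, 128685654 to 128733200, plus strand, 4081 bases), the common beta chain of receptors for fibronectin, laminin and VCAM-1, was the second integrin of the set by level. Its CPM values were 385, 251, 304 and 275 in plasma-negative and 360.5, 309, 319 and 363 in plasma-positive replicates 1 to 4. The highest library was plasma-negative replicate 1, so the groups overlapped. The log2 difference was 0.15 with an SE of 0.13 and a 95% interval of -0.14 to 0.45 (edgeR, adjusted p = 0.698). It stayed positive in each of the 19 other fits, from 0.03 with scaling by library totals to 0.29 with limma on RPKM.

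Itgb3 (ENSMUSG00000020689, chromosome 11, 104608000 to 104670476, plus strand, 5901 bases) pairs with alpha-v and, in platelets, with Itga2b to form the fibrinogen receptor. Its CPM values were 40.9, 31.2, 67.2 and 66.96 in plasma-negative and 39.7, 49.1, 47.0 and 53.4 in plasma-positive replicates 1 to 4. The plasma-negative libraries formed a low and a high pair, with plasma-positive replicates 2 to 4 between them. The log2 difference of -0.12 had a 95% interval of -0.70 to 0.47 (edgeR, adjusted p = 0.909), the widest of the 7, and its sign turned under limma on RPKM and without plasma-negative replicate 3 or 4. Of the 9 platelet genes listed, Gp9 was the one with enough counts to be tested. Ppbp, Gp5 and Gp6 had 0 counts in all 8 libraries, Itga2b had 10 and 34 counts in plasma-negative replicates 1 and 2 and 0 elsewhere, and Pf4 had 62 counts in plasma-negative replicate 3, 13 in plasma-positive replicate 2 and 0 elsewhere. Gp1ba reached 63 and 68 counts in plasma-negative replicate 2 and plasma-positive replicate 3, Gp1bb 36 and 112 counts in plasma-positive replicates 1 and 2, and Treml1 at most 13 in any library. Of the exon length of Gp1bb, 92.9% is shared with other genes on the same strand, so its counts are uncertain. The summed level of the platelet list, 32.7 to 61.2 CPM in plasma-negative and 76.2 to 98.5 CPM in plasma-positive libraries, was mostly Gp9, at 29.1 to 55.7 CPM and 71.9 to 93.6 CPM. The groups did not overlap for Gp9, with a log2 difference of 0.76 (edgeR, adjusted p = 0.138). The part of such cells in the Itgb3 values was not tested.

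Of the tested alpha chains of the set, Itga6 was the highest and showed the narrowest interval. Itga6 (ENSMUSG00000027111, chromosome 2, 71745616 to 71858416, plus strand, 9025 bases) pairs with Itgb1 to bind laminin. Its CPM values were 352, 384, 385 and 414 in plasma-negative and 425, 324, 308 and 413 in plasma-positive replicates 1 to 4. Plasma-positive libraries thus lay on both sides of the plasma-negative range. The log2 difference was -0.06 with a 95% interval of -0.33 to 0.20 (edgeR, adjusted p = 0.885), which spans 0.796-fold to 1.15-fold.

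Itgav (ENSMUSG00000027087, chromosome 2, 83724397 to 83806916, plus strand, 10744 bases), the alpha-v chain that pairs with Itgb1, Itgb3 and Itgb5, had 195, 148, 159 and 126 CPM in plasma-negative and 120.2, 156, 144 and 133 CPM in plasma-positive replicates 1 to 4. Its log2 difference was -0.18 with a 95% interval of -0.52 to 0.16 (edgeR, adjusted p = 0.681). Of its exon length, 5.90% overlaps Gm13684 on the other strand, and the use of strand in counting is not given in the sources used here. Itga9 (ENSMUSG00000039115, chromosome 9, 118606690 to 118901003, plus strand, 7691 bases), whose product pairs with Itgb1 to bind tenascin-C and osteopontin, had 76.2, 67.6, 105 and 83.1 CPM in plasma-negative and 53.7, 48.5, 87.2 and 86.6 CPM in plasma-positive replicates 1 to 4. Plasma-positive replicates 1 and 2 were below every plasma-negative library and replicates 3 and 4 were inside their range. The log2 difference of -0.27 had a 95% interval of -0.78 to 0.25 (edgeR, adjusted p = 0.700).

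Fermt3 (ENSMUSG00000024965, chromosome 19, 6998958 to 7019469, minus strand, 5784 bases) encodes the kindlin of blood cells, which binds beta-chain tails together with talin. It had 414, 357, 353 and 346 CPM in plasma-negative and 385, 315, 393 and 274 CPM in plasma-positive replicates 1 to 4. Plasma-negative replicate 1 was the highest of all, and plasma-positive replicates 2 and 4 were the lowest. The log2 difference was -0.11 with a 95% interval of -0.38 to 0.17 (edgeR, adjusted p = 0.790). Fermt2, the kindlin of most other cell types, was not tested, with at most 3.36 CPM in any library.

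The remaining 3 chains are those of lymphocyte homing and adhesion, and they were at or near the limit of detection. Itgal (ENSMUSG00000030830, chromosome 7, 127296260 to 127335138), the alpha chain of the leukocyte receptor for ICAM-1, had 4 counts in plasma-negative replicate 4, 22 in plasma-positive replicate 4 and 0 in the other 6 libraries. Itga4 (ENSMUSG00000027009, chromosome 2, 79255426 to 79333123), the alpha chain of the receptor for VCAM-1, had 11, 1, 0 and 0 counts in plasma-negative and 0, 0, 3 and 8 in plasma-positive replicates 1 to 4. Itgb7 (ENSMUSG00000001281, chromosome 15, 102215995 to 102231944), which pairs with Itga4 in gut-homing lymphocytes, was at 0 counts throughout the plasma-negative group and at 3, 0, 41 and 0 counts in plasma-positive replicates 1 to 4. A count of 0 allows up to 3 counts, which is 0.133 CPM in the deepest library and 1.01 CPM in plasma-negative replicate 4. No fold change is given for these 3 genes, since a single library of each group, or none, exceeded 3 counts.

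The 41 counts of Itgb7 lay in plasma-positive replicate 3, the library with the neutrophil transcripts, which also had 86 counts of Lck and 829 of Chil3 (at most 9 and 0 counts in the others). Cd3d, Cd3e, Cd3g, Cd2, Cd8a and Klrb1c, markers of T and NK cells, had 0 counts in all 8 libraries, as had Ms4a1 of B cells and Ly6g and Retnlg of neutrophils. The other T and NK cell genes besides Lck were Nkg7, with 14 counts in plasma-positive replicate 3 and 0 elsewhere, and Trbc2, with 23 counts in plasma-positive replicate 2 and 1 in replicate 3. The B cell list summed to 30.1 to 85.0 CPM in the plasma-negative and 54.0 to 94.5 CPM in the plasma-positive group, nearly all of it Cd79b, which had 178 to 1351 counts in every library and overlapping groups. The summed neutrophil list was 282 to 342 CPM in plasma-negative and 298 to 1269.9 CPM in plasma-positive libraries. In the libraries other than plasma-positive replicate 3 it was nearly all Csf3r, a gene with 836 to 7544 counts per library. The part of such cells in the Itgb7 count was not tested, and in bulk RNA fewer cells of a type cannot be told apart from less RNA per cell.

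**Figure D3:**
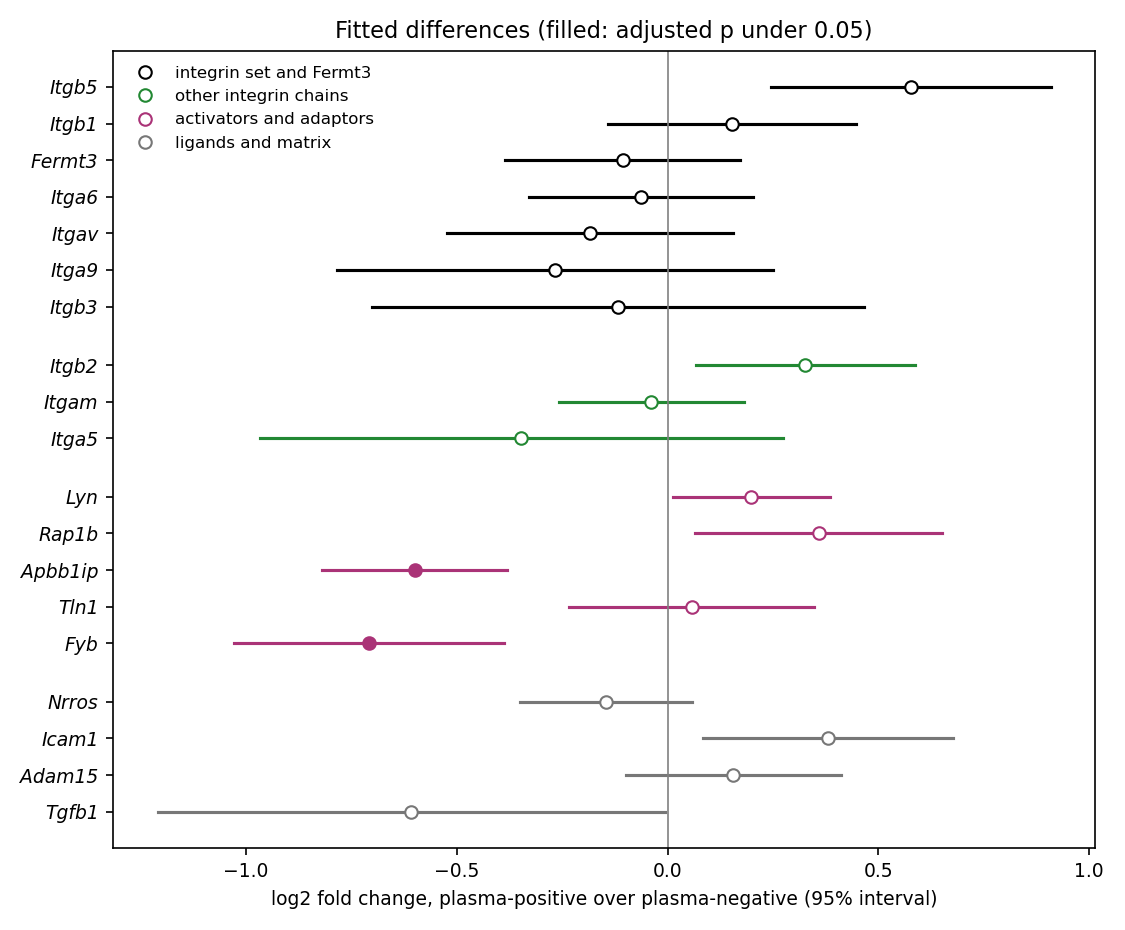
Fitted log2 differences (x axis) with 95% intervals for the 7 tested genes of the set and for named genes of the 3 related lists (rows), filled where the adjusted p was under 0.05. Itgb5 is the only one of the 7 whose interval, 0.25 to 0.91, leaves out 0, and only Apbb1ip and Fyb are filled.

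Because the chains work as pairs, the ratio of alpha to beta chain was taken within each library, which removes the scaling between libraries. The values are log2 ratios of RPKM and are given as a description. They still carry the trend with exon length given below, and Itgav and Itgb5 have exons of 10744 and 3553 bases. Whether groups stay apart with that trend removed was not examined, nor how often other gene pairs separate. Itgav to Itgb5 was -4.72, -5.20, -4.59 and -5.26 in plasma-negative and -5.42, -5.39, -5.89 and -5.98 in plasma-positive replicates 1 to 4, so every plasma-positive library was below every plasma-negative one. Put the other way, Itgb5 RPKM was 24.0 to 38.4 times that of Itgav in plasma-negative and 42.1 to 63.1 times in plasma-positive libraries. The mean log2 ratios, -4.94 ± 0.34 and -5.67 ± 0.30 (SD, n = 4), differed by -0.73. The other 4 ratios that could be formed overlapped between the groups. Their mean differences were -0.34 for Itgav to Itgb1, -0.11 for Itgav to Itgb3, -0.24 for Itga6 to Itgb1 and -0.47 for Itga9 to Itgb1. Ratios with Itga4 or Itgal were not formed, since these chains had libraries with no more than 3 counts.

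**Figure D4:**
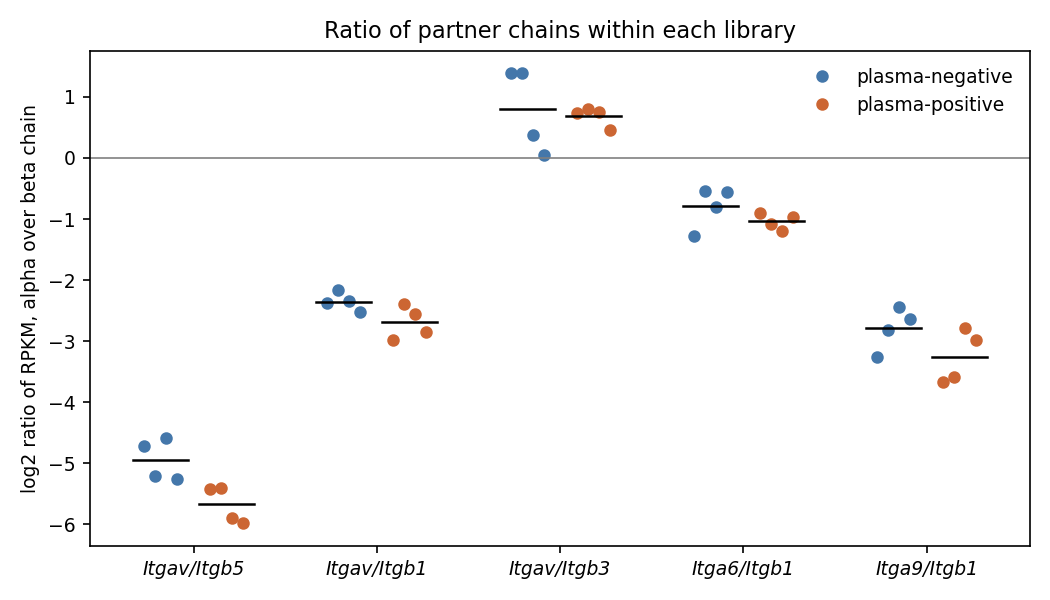
Log2 ratio of RPKM of an alpha chain to its beta chain (y axis) for 5 pairs, 1 point per library, plasma-negative in blue and plasma-positive in orange, with black lines at the group means. Only for Itgav to Itgb5 do the groups not overlap, with means of -4.94 and -5.67. The ratios are not corrected for the trend with exon length.

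Exon length moved with these differences. The 2 tested genes of the set with positive log2 differences, Itgb5 and Itgb1, have the shortest exons of the 7 (3553 and 4081 bases), and the 5 with negative ones have 5784 to 10744 bases, where the median of all tested genes is 3975.5. Across 9426 genes of at least 8 CPM, Spearman's rho between log2 difference and exon length was -0.319, a description over genes that share these 8 libraries. Its median was 0.09 for the 1360 of these genes with exons of 3500 to 4500 bases and -0.11 for the 2843 with 5500 to 11000. With the length trend removed from each library, the log2 difference was 0.46 for Itgb5 (adjusted p = 0.258), 0.07 for Itgb1, 0.12 for Itga6, 0.08 for Itgav, -0.15 for Itga9, -0.08 for Itgb3 and -0.08 for Fermt3 in edgeR. The sign of Itga6 and Itgav thus turned. The gap between the fitted changes of Itgav and Itgb5 went from -0.76 to -0.38, and that between Itgav and Itgb1 from -0.34 to 0.01.

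Of the 18 other integrin chains, 5 were tested and 0 passed in edgeR, with 1 at an unadjusted p under 0.05 and a median log2 difference of -0.04. DESeq2 and limma also called 0. The shares over all tested genes are 1.41% called and 13.8% at an unadjusted p under 0.05 in edgeR, and 6.43% called in DESeq2. Limma called 3.37% or 3.25%, with a pseudocount of 1 or 0.1. On the CPM scale the groups were apart for 1 of the 5, where 10.3% of all tested genes had groups apart. Itgb2, the beta chain shared by the leukocyte integrins, had 632, 562, 700.1 and 847 CPM in plasma-negative and 828, 778, 890 and 938 CPM in plasma-positive replicates 1 to 4, a log2 difference of 0.33 (edgeR, adjusted p = 0.233). Plasma-negative replicate 4 alone among its group reached the plasma-positive range. Itgam, the alpha chain of complement receptor 3, differed by -0.04 with a 95% interval of -0.26 to 0.18 (edgeR, adjusted p = 0.920). Itga5, the alpha chain of the classical fibronectin receptor, was at 36.7 ± 5.5 CPM in plasma-negative and 28.9 ± 9.7 CPM in plasma-positive libraries (SD, n = 4), a log2 difference of -0.35 (edgeR, adjusted p = 0.665). Itgax, the alpha chain of complement receptor 4, had 148, 27, 171 and 0 counts in plasma-negative and 122, 386, 209 and 185 counts in plasma-positive replicates 1 to 4. On the CPM scale its groups did not overlap (0 to 9.96 against 10.6 to 20.7), and the log2 difference of 1.77 had a 95% interval of -0.07 to 3.61 (edgeR, adjusted p = 0.384). Itgb8, the beta chain known for activating TGF-beta, had 102 and 24 counts in plasma-positive replicates 2 and 3 and 0 in the other 6 libraries.

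Of 42 genes for inside-out activation and adhesion adaptors, 34 were tested, 0 rose and 2 fell in edgeR, with a median log2 difference of 0.03. At an unadjusted p under 0.05 there were 6 higher and 3 lower. On the CPM scale the groups did not overlap for 6 of the 34, 4 higher (Ilk, Parvg and Rap1b among them) and 2 lower. Over all tested genes this was the case for 10.3%. Over all tested genes, 1.41% were called, 0.565% as lower, and 13.8% had an unadjusted p under 0.05. DESeq2 called 4 adaptors, 2 lower (the same genes) and 2 higher, Ilk and Parvg, against its 6.43% of all genes. Ilk, the kinase-like adaptor that links beta-chain tails to parvins, had a log2 difference of 0.47 (adjusted p = 0.0156) in DESeq2. Of its exon length, 89.7% overlaps Taf10 and Rrp8 on the other strand, so its counts are uncertain. Parvg, the parvin of blood cells, had one of 0.52 (DESeq2, adjusted p = 0.0490). In edgeR these differences were 0.49 (adjusted p = 0.124) and 0.55 (adjusted p = 0.155). Limma called Apbb1ip as lower and Ilk as higher, against 3.37% of all genes on log2(RPKM + 1) and 3.25% on log2(RPKM + 0.1). Apbb1ip, which encodes RIAM, the effector of Rap1 that brings talin to integrins, had 493, 492, 512 and 432 CPM in plasma-negative and 296, 291, 352 and 334 CPM in plasma-positive replicates 1 to 4. All plasma-positive libraries were below all plasma-negative ones. It fell by 0.60 on the log2 scale with an SE of 0.10 (edgeR, adjusted p = 0.0142). Fyb, which encodes the leukocyte adaptor ADAP that works in the same route to integrins, had 414, 373, 429 and 363 CPM in plasma-negative and 209.7, 187, 288 and 282 CPM in plasma-positive replicates 1 to 4. Its groups did not overlap either, and it fell by 0.71 with an SE of 0.15 (edgeR, adjusted p = 0.0375).

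Both calls were close to the threshold in several fits. With the length trend described above removed, Apbb1ip had a log2 difference of -0.50 (edgeR, adjusted p = 0.0526) and Fyb one of -0.70 (edgeR, adjusted p = 0.0625). With limma on RPKM, Apbb1ip passed (adjusted p = 0.0482 and 0.0463 with a pseudocount of 1 and 0.1) and Fyb did not (adjusted p = 0.0522 and 0.0558). Leaving out each library in turn kept Apbb1ip past the threshold in 5 of 8 fits; it was lost without plasma-negative replicate 3 or plasma-positive replicate 1 or 2 (adjusted p up to 0.0649). Fyb passed in 1 of 8, without plasma-positive replicate 3 (adjusted p = 0.0461), and had an adjusted p of 0.0532 to 0.116 in the other 7. Of the exon length of Fyb, 10.2% overlaps Gm2245 and Gm7666.

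The talin gene Tln1 was at 173 ± 25 and 181 ± 11 CPM in plasma-negative and plasma-positive libraries (SD, n = 4), a log2 difference of 0.06 with a 95% interval of -0.23 to 0.35 (edgeR, adjusted p = 0.911). Rap1b, the small GTPase upstream of Apbb1ip, was at 570.0 ± 122 and 730.2 ± 26 CPM without overlap between the groups, a log2 difference of 0.36 (edgeR, adjusted p = 0.249). Lyn, a kinase of the Src family that acts below integrins in myeloid cells, had a log2 difference of 0.20 (edgeR, adjusted p = 0.323). Of the 34 tested, Apbb1ip and Fyb were thus the 2 past the threshold in edgeR.

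Of 38 ligands and matrix genes, 37 were in the table, 13 were tested and 0 passed in edgeR. There were 2 higher and 1 lower at an unadjusted p under 0.05, against 1.41% called and 13.8% at such a p over all tested genes. DESeq2 and limma called 0, where DESeq2 called 6.43% of all genes and limma 3.37% or 3.25%. On the CPM scale the groups were apart for 1 of the 13, where 10.3% of all tested genes had groups apart. Fn1, which encodes fibronectin, had at most 0.914 CPM in any library, and Vtn, which encodes vitronectin, the ligand of the alpha-v beta-5 pair, had at most 2.39 CPM, so neither was tested. Icam1, the ligand of leukocyte integrins, had 179, 258, 264 and 222 CPM in plasma-negative and 326, 265, 301 and 311 CPM in plasma-positive replicates 1 to 4. The groups were separated by a narrow margin between plasma-negative replicate 3 and plasma-positive replicate 2, and the log2 difference of 0.38 did not pass (edgeR, adjusted p = 0.223). Nrros, which holds latent TGF-beta on microglia, differed by -0.15 (adjusted p = 0.541), Tgfb1 by -0.61 (adjusted p = 0.356) and Adam15, a metalloproteinase with an integrin-binding domain, by 0.16 (adjusted p = 0.622), all in edgeR.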

How the data were processed

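RNA of sorted microglia was made into Smart-seq2 libraries, which carry no molecular identifiers, per the labels' protocols. The authors' tools were bcl2fastq, Trim Galore, STAR and HTSeq with build mm10, per the submitters' processing notes; versions and the use of strand are not given in the sources used here. The deposited counts are whole reads per gene, and the file headers name alignments restricted to top hits. RPKM values, per the file headers and the values deposited, divide them by exon length and by a library total above the summed gene counts; that total was recovered from counts over RPKM. Of the identifiers, 35546 of 35583 (99.9%) were in GENCODE M21 (GRCm38), the source of exon lengths and overlaps; coordinates are those of the deposited tables, and promoters are from RefSeq (GRCm38.p6).

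The whole table of counts was fitted with edgeR 4.0.16 in R 4.3.3 (TMM factors, default filter by group, quasi-likelihood F test, Benjamini-Hochberg over all 13277 genes, called at an adjusted p under 0.05). SE is the log2 difference over the square root of F, and intervals are 95% from the same fit. CPM uses TMM-scaled library sizes. Alternatives were other scalings and filters, DESeq2 1.42.0, limma 3.58.1 on log2 of RPKM plus 1 or 0.1, the replicate block, a per-library loess on exon length (span 0.3, fitted on genes of at least 8 CPM), other thresholds and leaving out each library. The exact permutation test ran over the 70 assignments of libraries to groups. The edgeR code, with and without the length correction, was run on simulated counts. That was a check of the code and not of differences as small as those reported here.

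The genes and lists were chosen with earlier results of these data known. Named are all 10 genes of the set, the 3 highest other chains by RPKM, the 4 highest adaptors (1 of them is not reported here) and the 4 highest ligands by CPM, Tln1, Fermt2, Fn1 and Vtn, called genes of these lists, and, chosen after their values were seen, Itgb8, Itgax, Ilk, Parvg and the markers named. The floor of 3 counts covers counting error only. The intervals of the fitted differences come from the edgeR fit and, like its p-values, also take in the spread between these libraries.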

Additional observations from a re-analysis of the deposited data

Results flagged for a closer look

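In 30 groups of 4 libraries (CPM of the 7 tested genes, Apbb1ip and Fyb, the counted share and the 5 chain ratios), 2 had a library far from the others, where chance gives about 1 in 20. Fermt3 was at 414 CPM in plasma-negative replicate 1, against 357 CPM in the nearest library of its group. The counted share was 74.6% in plasma-negative replicate 4, against 69.3% in the nearest.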

How the results depend on the processing

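Of the 7 tested genes, none was past the threshold in edgeR, and the count was 1 (Itgb5) with DESeq2, with limma on log2(RPKM + 1) or log2(RPKM + 0.1) and at an adjusted p under 0.1; leaving out each library gave 0 to 1, the 1 being Itgb5 without plasma-positive replicate 1. Itgb5, Itgb1 and Itga9 kept their sign in all 19 other fits. Signs turned for Itga6 with limma (0.049 and 0.050), the length correction (0.12), the length correction with the replicate block (0.11) and within -0.14 to 0.015 on leaving out a library, for Itgav with the length correction (0.077) and with the block added (0.090), for Itgb3 with limma (0.049 and 0.065) and within -0.30 to 0.048 on leaving out a library, and for Fermt3 with limma (0.0089 and 0.0087). Over all genes, 187 calls (59.9% higher) became 963 with DESeq2, 447 and 432 with limma (86.8% and 85.6% higher), 74 with the replicate block (70.3% higher), 65 with the length correction and 10 with the block added, 46 at an adjusted p under 0.01, 407 at 0.1, and 66 to 203 on leaving out a library (at most 93 without any library but plasma-negative replicate 4, whose removal gave 203). Activators and adaptors called, 2 in edgeR, were 4 with DESeq2 (2 higher, 2 lower), 2 with limma (1 higher, 1 lower), 0 with the block, the length correction or both, and 0 to 2 on leaving out a library. With library totals only, 28.2% of calls were higher and the median of all genes was -0.11; with limma on RPKM that median was 0.11 and 0.16. Same-numbered libraries had correlations of 0.0109 to 0.0315 between their deviations from the group means, beside a mean of -0.0056 over the other pairs. Only those numbered 4 correlated best with each other. The numbers were therefore not taken to pair the libraries, though pairing is not excluded. With the replicate block the log2 difference in edgeR was -0.60 for Apbb1ip (adjusted p = 0.0525) and -0.73 for Fyb (adjusted p = 0.0645), and the counted share differed by 12.8 points with p = 0.125 when signs were flipped exactly over 4 pairs, which cannot give less (an alternative chosen after seeing the data). The cause of these changes was not tested. Itga4, Itgal and Itgb7 had no more than 41 counts in any library, too few to test.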
